A study of Rattus norvegicus with 10 samples.

Results

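Complex I genes of the nuclear genome were described in cultured heart muscle cells of neonatal rats (cardiomyocytes) made to overexpress either YAP5SA or YAP5SA-S94A. The members were all gene names of the Nduf family that encode subunits (Ndufa, Ndufab, Ndufb, Ndufc, Ndufs and Ndufv with a number) or assembly factors (Ndufaf with a number), with numbered pseudogenes left out. They came to 51 of 39784 gene names, and 48 of them were among the 13420 names whose TPM averaged 1 or more across the 4 libraries. TPM is a level per transcript length, scaled to a fixed sum in every library. YAP, the coactivator held back by Hippo signalling, has no DNA-binding domain and depends largely on TEAD factors to reach its target genes. In YAP5SA, an activated form, inhibitory phosphorylation sites are lost, and in YAP5SA-S94A a serine needed to bind TEAD is replaced as well. YAP5SA cells received the adenovirus Ad-Xon-YAP5SA and YAP5SA-S94A cells the adenovirus Ad-Xon-YAP5SA-S94A. All cells were wild type and were grown in M199 medium with serum. There were 2 RNA-seq libraries per form, called biological replicates in the labels. Nothing in the labels ties them to separate isolations or cultures, so p-values measure only the spread between these libraries. Cells without a YAP virus were not part of the RNA data used, so a gene called lower with YAP5SA could equally be described as higher with YAP5SA-S94A. The labels used here give no viral dose and no time after infection. CUT&RUN data from 6 further samples were not analysed here.

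Complex I, the NADH:ubiquinone oxidoreductase of the inner mitochondrial membrane, takes electrons from NADH and passes them through a flavin and a chain of iron-sulfur clusters to ubiquinone, while its membrane arm pumps protons. Its core subunits are shared with bacteria and are encoded partly in the nucleus and partly in mitochondrial DNA, and the accessory subunits and assembly factors are all encoded in the nucleus. Heart muscle is rich in mitochondria and draws most of its ATP from oxidative phosphorylation.

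Sequences upstream of the start are shown for the genes on which the comparison turns: Ndufv1 and Ndufa6, the only members called lower under every alternative setting, and Ndufa3, the only member called higher. Each is the 250 bases before the annotated start on the gene's strand, 5′ to 3′, from RefSeq (build GRCr8). Capitals mark a match to CCGGAAG, the letters bound by ETS factors such as GABPA.
Ndufv1 (chr1:210734892-210735141, minus strand): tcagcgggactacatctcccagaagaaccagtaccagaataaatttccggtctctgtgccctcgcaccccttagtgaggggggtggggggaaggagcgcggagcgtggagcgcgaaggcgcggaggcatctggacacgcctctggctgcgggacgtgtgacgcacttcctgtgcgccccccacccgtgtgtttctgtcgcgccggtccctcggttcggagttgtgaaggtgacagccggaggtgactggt
Ndufa6 (chr7:115750318-115750567, minus strand): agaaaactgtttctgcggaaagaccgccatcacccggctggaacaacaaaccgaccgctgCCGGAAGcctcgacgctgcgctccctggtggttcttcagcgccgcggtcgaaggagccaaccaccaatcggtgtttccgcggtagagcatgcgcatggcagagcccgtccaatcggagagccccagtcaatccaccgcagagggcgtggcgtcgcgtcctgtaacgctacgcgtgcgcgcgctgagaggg
Ndufa3 (chr1:74515559-74515808, minus strand): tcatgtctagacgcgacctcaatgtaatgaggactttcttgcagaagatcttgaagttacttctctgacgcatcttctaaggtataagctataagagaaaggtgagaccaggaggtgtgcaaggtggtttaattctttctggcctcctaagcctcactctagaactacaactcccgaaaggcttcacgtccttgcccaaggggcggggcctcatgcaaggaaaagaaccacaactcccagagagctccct
Of the 5 motifs searched on both strands (TEAD, ETS, ERR, NRF1 and YY1), only that ETS match in Ndufa6 lay in these 3 windows.

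As a whole, nuclear complex I transcripts were less abundant with YAP5SA. The 48 genes summed to 12667 and 12746 TPM in the YAP5SA libraries, against 15095 and 14450 TPM in the YAP5SA-S94A libraries. As a share of each library this was 1.27% and 1.28% with YAP5SA, against 1.51% and 1.45% with YAP5SA-S94A, so the forms did not overlap. In bulk RNA, fewer cells of a type and less RNA per cell cannot be told apart. With limma on log2(TPM + 1) across all tested genes, 14 of the 48 (29.2%) were called lower, at a Benjamini-Hochberg adjusted p under 0.05, and 1 (2.08%) was called higher. Over all 13420 genes, 15.5% were called lower, 17.4% higher and 32.9% in either direction, so the members' total of 31.2% called was near the background, while their share of lower calls was above it. The median log2 fold change, YAP5SA minus YAP5SA-S94A, was -0.16 over the members, with 38 of 48 values negative, and 0.000148 over all tested genes. Both YAP5SA values lay below both YAP5SA-S94A values for 26 members (54.2%, against 33.8% of all tested genes) and above them for 4 members (8.33%, against 34.5%). The called decreases were modest, from -0.34 to -0.59 on the log2(TPM + 1) scale, on which changes of scarce genes come out smaller than they are.

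The count of calls rests on a small number of libraries. Without YAP5SA-S94A replicate 1, 2 members were called lower and 0 higher, and without YAP5SA-S94A replicate 2, 3 were called lower and 1 higher. Without YAP5SA replicate 1 the counts were 17 lower and 3 higher, and without YAP5SA replicate 2 they were 19 lower and 1 higher. A variance model with no intensity trend left 4 lower and 0 higher. No called member changed sign under any of 16 alternatives, and 2 of the 15, Ndufv1 and Ndufa6, were called under every alternative.

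**Figure D1:**
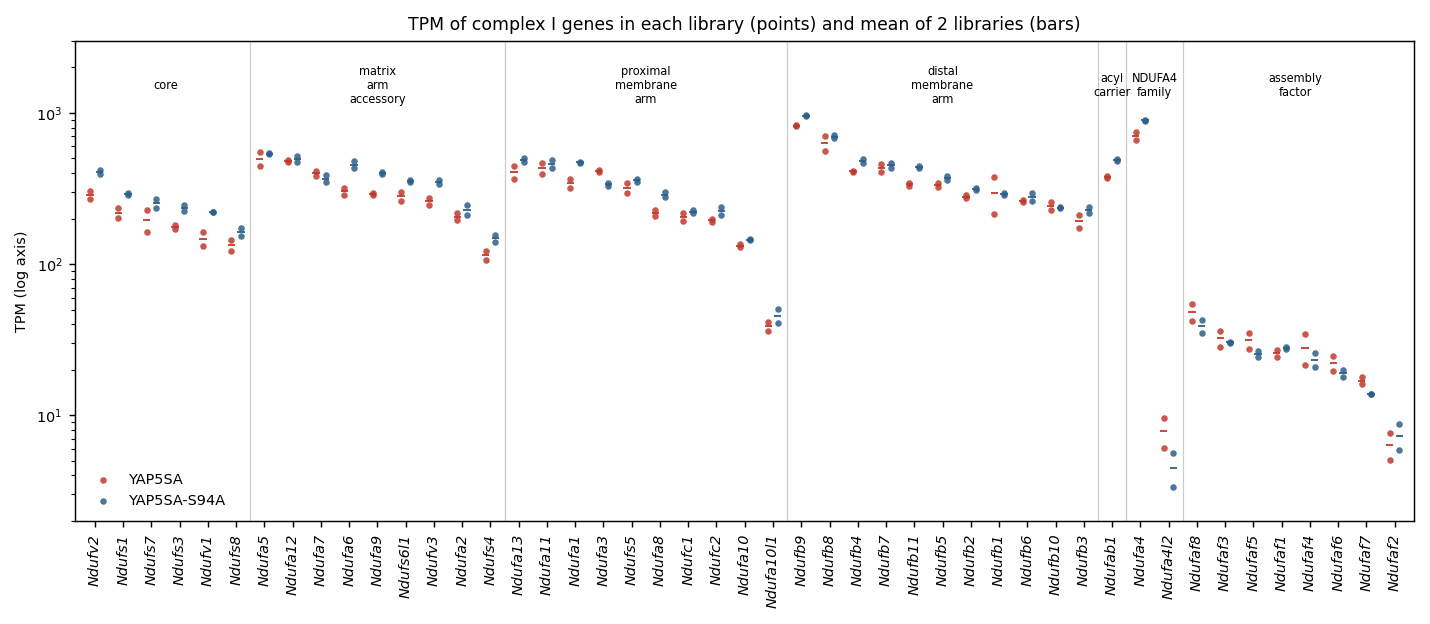
TPM (log axis) of 47 of the 48 tested complex I genes in each library (points, YAP5SA left of YAP5SA-S94A) with the mean of 2 libraries as a short bar, in blocks by role. The assembly factors, at 54.1 TPM or less, lie below all arm subunits except Ndufa10l1, and the YAP5SA points of Ndufv1, Ndufa6 and Ndufa9 lie below those of YAP5SA-S94A.

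Levels differed far more between members than between forms. Ndufb9, a subunit of the distal membrane arm, was the most abundant at a mean of 891 TPM over the 4 libraries, which took 6.48% of the members' sum. Ndufa4 followed at 799.8 TPM and Ndufb8 at 664 TPM. The least abundant tested members were Ndufa4l2 at 6.14 TPM and the assembly factor Ndufaf2 at 6.83 TPM. All 8 assembly factors lay at 54.1 TPM or less in every library, with a median over the factors of 26.3 TPM, against a median of 328 TPM over the 38 subunits of the arms and the acyl carrier. The lowest subunit was Ndufa10l1 at 42.2 TPM, a close copy of Ndufa10 at 139 TPM, and reads of these copies cannot be divided with certainty.

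The names that were not tested were Ndufs6 and Ndufb4l1, both listed at 0 in all 4 libraries, and Ndufb11b, listed at 0.324 and 0.78 TPM in YAP5SA and at 0 in both YAP5SA-S94A libraries. The later RefSeq table (GRCr8) gives the symbol Ndufs6 to the gene called Ndufs6l1 in the deposited tables and treats the deposited Ndufs6 entry as a pseudogene. Ndufs6l1 stood at 261 and 302 TPM in YAP5SA and 363 and 349 TPM in YAP5SA-S94A, and is described below as the zinc-binding matrix arm subunit.

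The core subunits of the matrix arm carry the flavin and the iron-sulfur clusters. Of these 7, 4 were called lower in YAP5SA (57.1%, against 15.5% of all tested genes). The median log2 fold change of the 7 was -0.42, and all 7 values were negative. Ndufv1 (chromosome 1, 201300365 to 201305461, rn7) binds NADH and the flavin and so takes in the electrons. It had 163 and 133 TPM in YAP5SA libraries, against 222 and 221 TPM in YAP5SA-S94A libraries. Both YAP5SA values were low and the groups did not overlap. It averaged 148 ± 21.5 TPM in YAP5SA and 221 ± 0.617 TPM in YAP5SA-S94A (SD, n = 2 each), and fell by 0.59 on the log2 scale (SE 0.12, limma adjusted p = 0.0087). Its partner Ndufv2, an iron-sulfur subunit of the same NADH-oxidising end, had 268 and 304 TPM in YAP5SA and 421 and 395 TPM in YAP5SA-S94A. It fell by 0.51 (SE 0.10, limma adjusted p = 0.0078), again with no overlap.

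Ndufs1, the largest subunit and the carrier of further iron-sulfur clusters, had 202 and 236 TPM in YAP5SA and 286 and 297 TPM in YAP5SA-S94A. Ndufs3, which joins that module to the quinone-binding part, had 180 and 171 TPM in YAP5SA and 247 and 226 TPM in YAP5SA-S94A. Both fell, with log2 fold changes of -0.42 (SE 0.11, limma adjusted p = 0.0213) and -0.42 (SE 0.10, limma adjusted p = 0.0137). In the quinone-binding part, Ndufs7, which carries the last cluster before ubiquinone, had 227 and 164 TPM in YAP5SA and 271 and 234 TPM in YAP5SA-S94A. The groups did not overlap, but the YAP5SA libraries lay far apart, and the gene was not called (-0.38, SE 0.16, limma adjusted p = 0.11). It passed the threshold as lower under 3 of 16 alternatives, among them leaving out YAP5SA replicate 1 (-0.62). Ndufs8, another iron-sulfur subunit, had 143 and 123 TPM in YAP5SA and 174 and 153 TPM in YAP5SA-S94A, with no overlap and no call (-0.30, SE 0.12, limma adjusted p = 0.0947). Ndufs8 too was a lower call under 3 of 16 alternatives.

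Among the accessory subunits of the matrix arm 5 of 9 were called lower (55.6%, against 15.5% of all tested genes). The median log2 fold change of the 9 was -0.34. Ndufa6 (chromosome 7, 113866382 to 113870239, rn7), a protein of the LYR family that holds an acyl carrier on the matrix arm, had 287 and 321 TPM in YAP5SA and 479 and 430 TPM in YAP5SA-S94A. Both YAP5SA values were low, with a wide gap to the nearest YAP5SA-S94A value. It averaged 304 ± 24.2 TPM in YAP5SA and 455 ± 34.3 TPM in YAP5SA-S94A (SD, n = 2 each), a log2 fold change of -0.58 (SE 0.10, limma adjusted p = 0.0052). Ndufa9, which sits where the matrix arm meets the membrane, had 286 and 293 TPM in YAP5SA and 393 and 407 TPM in YAP5SA-S94A, close pairs that did not overlap. It fell by 0.46 (SE 0.09, limma adjusted p = 0.0061).

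Ndufv3, an accessory subunit of the NADH-oxidising end, had 274 and 245 TPM in YAP5SA and 360 and 336 TPM in YAP5SA-S94A and fell by 0.42 (SE 0.10, limma adjusted p = 0.0154). Ndufs4, whose loss in humans and mice gives a severe complex I deficiency, had 106 and 122 TPM in YAP5SA and 140 and 156 TPM in YAP5SA-S94A (-0.37, SE 0.11, limma adjusted p = 0.0412). Ndufs6l1, with the values given above, fell by 0.34 (SE 0.10, limma adjusted p = 0.0394). The groups did not overlap for any of these 3 genes, but Ndufs4 and Ndufs6l1 lay near the threshold and were called under 10 and 11 of 16 alternatives. The other accessory subunits of the matrix arm had overlapping groups. Ndufa7 was the only one with a positive value, at 413 and 383 TPM in YAP5SA and 388 and 346 TPM in YAP5SA-S94A (0.12, SE 0.10, limma adjusted p = 0.399). Ndufa5 had 445 and 548 TPM in YAP5SA and 533 and 542 TPM in YAP5SA-S94A (-0.12, SE 0.12, limma adjusted p = 0.457), so its YAP5SA libraries lay on either side of YAP5SA-S94A. Ndufa12 had 489 and 474 TPM in YAP5SA and 520 and 470 TPM in YAP5SA-S94A (-0.04, SE 0.09, limma adjusted p = 0.781). Ndufa2 (-0.14) was not called either.

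**Figure D2:**
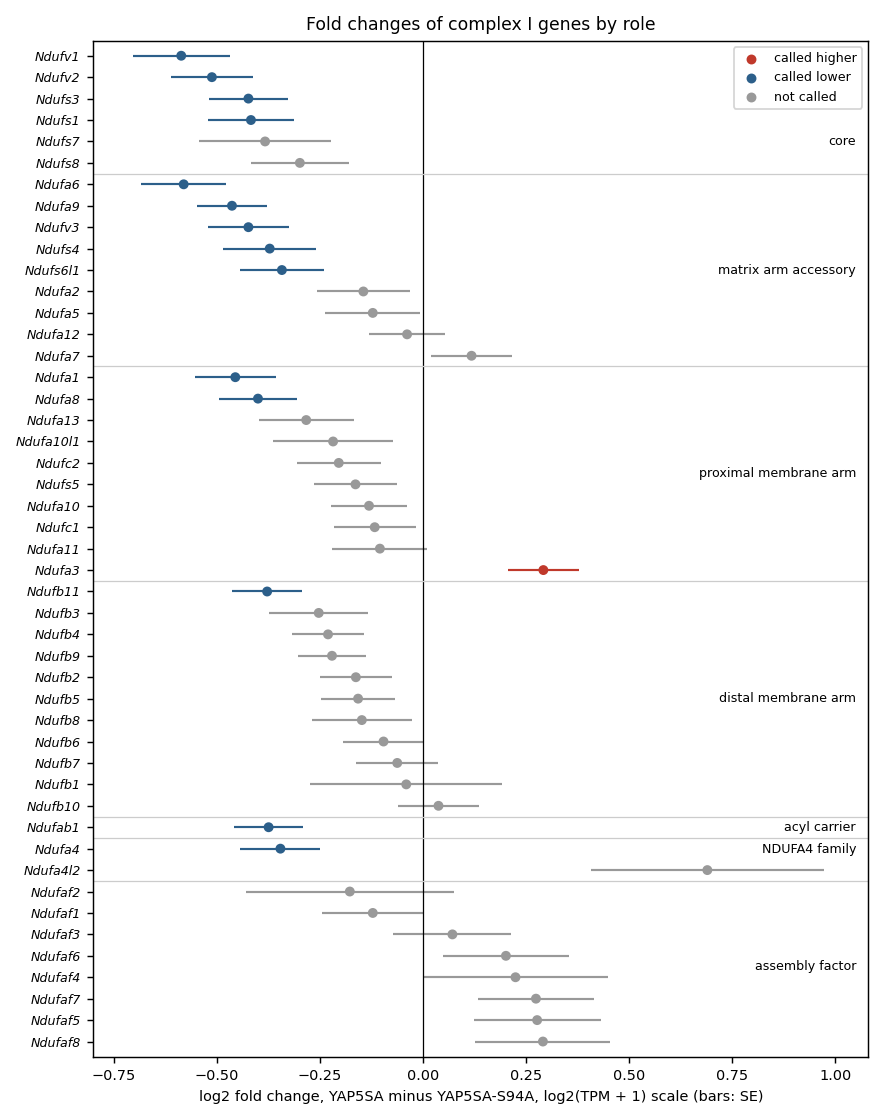
Log2 fold changes (YAP5SA minus YAP5SA-S94A, log2(TPM + 1) scale) of 47 of the 48 tested complex I genes by role, with bars for the SE; blue points were called lower, the red point higher and grey points not called. The core and matrix arm accessory blocks hold 9 of the 14 genes called lower, and 6 of the 8 assembly factors lie right of 0.

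The subunits at the near end of the membrane arm, next to the matrix arm, gave 2 lower and 1 higher call of 10. These shares of 20.0% lower and 10.0% higher, 30.0% in all, compare with 15.5%, 17.4% and 32.9% of all tested genes. Ndufa1, a small membrane-anchored subunit encoded on the X chromosome, had 320 and 367 TPM in YAP5SA and 465 and 476 TPM in YAP5SA-S94A. It fell by 0.46 (SE 0.10, limma adjusted p = 0.0118). Ndufa8, a subunit on the intermembrane-space side with paired cysteines, had 227 and 209.5 TPM in YAP5SA and 298 and 278 TPM in YAP5SA-S94A (-0.40, SE 0.09, limma adjusted p = 0.0167). In both genes the YAP5SA pair was low and the groups did not overlap.

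Ndufa3 (chromosome 1, 65597567 to 65600197, rn7), a small subunit that spans the membrane once, went the other way. It had 405 and 418 TPM in YAP5SA and 329 and 343 TPM in YAP5SA-S94A, so both YAP5SA values were high. It averaged 412 ± 9.33 TPM in YAP5SA and 336 ± 9.58 TPM in YAP5SA-S94A (SD, n = 2 each), and rose by 0.29 on the log2 scale (SE 0.09, limma adjusted p = 0.0377). That call was made under 9 of 16 alternatives. It was lost, with the sign kept, with FPKM, with median-of-ratios scaling, with the mitochondrial chromosome left out, with no filter, with no intensity trend and without either YAP5SA-S94A library, and its adjusted p ranged from 0.0222 to 0.374.

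The other 7 members of the near membrane arm were not called and had log2 differences from -0.28 to -0.10. Ndufa13, known as GRIM-19, had 446 and 364.5 TPM in YAP5SA and 505 and 477 TPM in YAP5SA-S94A (-0.28, SE 0.12, limma adjusted p = 0.103). The groups did not overlap, and the gene was a lower call in 3 alternatives: a block for the replicate number, no YAP5SA replicate 1, and no mitochondrial chromosome. Ndufc1, a small subunit, had 193 and 217 TPM in YAP5SA and 229 and 216 TPM in YAP5SA-S94A (-0.12, SE 0.10, limma adjusted p = 0.406). Ndufa11, a subunit with several membrane spans, had 467 and 394 TPM in YAP5SA and 491 and 434 TPM in YAP5SA-S94A (-0.10, SE 0.12, limma adjusted p = 0.527). The groups overlapped for both. Ndufa10 had 135 and 130 TPM in YAP5SA and 146 and 144 TPM in YAP5SA-S94A, a log2 difference of -0.13 (SE 0.09), and its copy Ndufa10l1 one of -0.22 (SE 0.14).

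At the far end of the membrane arm the median log2 fold change was -0.16. There 1 of 11 tested subunits was called lower (9.09%, against 15.5% of all tested genes). That gene, Ndufb11, an X-linked subunit, had 343 and 329 TPM in YAP5SA and 443 and 431 TPM in YAP5SA-S94A, with a log2 fold change of -0.38 (SE 0.09, limma adjusted p = 0.0142). Ndufb9, the most abundant member and a further protein of the LYR family, had 817.5 and 828 TPM in YAP5SA and 969 and 949 TPM in YAP5SA-S94A. These groups did not overlap either, but the gene was not called (-0.22, SE 0.08, limma adjusted p = 0.0814). Ndufb4 gave much the same picture at 406 and 413 TPM in YAP5SA and 495 and 467 TPM in YAP5SA-S94A (-0.23, SE 0.09, limma adjusted p = 0.0811). Ndufb3 had 173 and 210.5 TPM in YAP5SA and 238 and 217 TPM in YAP5SA-S94A (-0.25, SE 0.12, limma adjusted p = 0.151), and the groups were close but did not overlap. Ndufb7 had 458 and 404 TPM in YAP5SA and 466 and 434 TPM in YAP5SA-S94A, with overlap (-0.06, SE 0.10, limma adjusted p = 0.669). Ndufb10 was the only positive value at the far end, at 257 and 227 TPM in YAP5SA and 233 and 238 TPM in YAP5SA-S94A (0.04, SE 0.10, limma adjusted p = 0.803), and it changed sign under quantile normalization (-0.05) and with the mitochondrial chromosome left out (-0.03). Across the arms, 9 of 16 matrix arm genes and 3 of 21 membrane arm genes were called lower, with medians of -0.38 and -0.16. The matrix arm's share of lower calls was 56.2%, against 15.5% of all tested genes, while the membrane arm's 14.3% was near that background and its 19% called in either direction was below the 32.9% of all tested genes. The difference between the arms was not tested. Leaving out each library in turn gave 1 to 6 lower calls among the core subunits, 1 to 6 among the matrix arm accessory ones, 0 to 3 at the near end of the membrane arm and 0 to 4 at the far end. The lowest counts came without a YAP5SA-S94A library.

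Ndufb1, a small subunit of the far membrane arm, showed the widest gap between replicates. It had 213 and 376 TPM in YAP5SA and 296 and 287 TPM in YAP5SA-S94A, so the YAP5SA libraries lay on either side of both YAP5SA-S94A libraries. Its log2 difference was -0.04 (SE 0.23, limma adjusted p = 0.913). Leaving out YAP5SA replicate 2 made it a lower call (-0.45, limma adjusted p = 0.0100) and leaving out YAP5SA replicate 1 a higher call (0.37, limma adjusted p = 0.0143), so no direction can be given. It overlaps Cpsf2 by 115 bases on the opposite strand. The YAP5SA libraries differed more among themselves in general. The median absolute log2 difference between replicates was 0.182 over the members in YAP5SA and 0.0846 in YAP5SA-S94A, and 0.21 and 0.113 over all tested genes.

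Ndufab1 encodes the mitochondrial acyl carrier protein, which binds the LYR subunits of complex I and also serves fatty acid synthesis in mitochondria. It had 382 and 372 TPM in YAP5SA and 494 and 484 TPM in YAP5SA-S94A, close pairs that did not overlap, and fell by 0.37 (SE 0.08, limma adjusted p = 0.0138). Ndufa4, once taken for a complex I subunit and now counted with cytochrome c oxidase, had 659 and 751 TPM in YAP5SA and 885 and 904 TPM in YAP5SA-S94A. It fell by 0.35 (SE 0.10, limma adjusted p = 0.0319). Its paralog Ndufa4l2, known as a gene induced by hypoxia, was scarce, at 9.58 and 6.05 TPM in YAP5SA and 3.35 and 5.60 TPM in YAP5SA-S94A. The YAP5SA values were the higher ones, and the gap between the nearest of them was small. Its log2 difference of 0.69 (SE 0.28) was the largest among the members and was not called (limma adjusted p = 0.105). It was called higher without YAP5SA-S94A replicate 2 (0.99) and with the replicate number as a block. Ndufa4l2 overlaps Shmt2, at a mean of 70.0 TPM, by 50 bases on the opposite strand. Its level was 1.46% and 0.805% of that of Ndufa4 in YAP5SA and 0.378% and 0.619% in YAP5SA-S94A. Without these 2 genes, 13 of 46 members were called lower and 1 higher, and the median stayed at -0.16.

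The assembly factors, which help build complex I and are not part of the finished enzyme, gave no calls. With limma 0 of 8 were called in either direction, against 32.9% of all tested genes, and 0 had an unadjusted p under 0.05. Positive log2 differences were found for 6 of 8, against 6713 of 13420 tested genes, and the median of the 8 was 0.21. Groups did not overlap on the lower side for 1 factor (12.5%, against 33.8% of all tested genes). On the higher side they did not overlap for 2 (25.0%, against 34.5%). The 8 factors summed to 207 and 215 TPM in YAP5SA and 183 and 190 TPM in YAP5SA-S94A. The largest values belonged to Ndufaf8, Ndufaf5 and Ndufaf7. Ndufaf5, which hydroxylates an arginine of Ndufs7, had 27.4 and 35.3 TPM in YAP5SA and 24.3 and 26.7 TPM in YAP5SA-S94A (0.28, SE 0.15, limma adjusted p = 0.211). Its partner Ndufaf8 had 54.1 and 41.8 TPM in YAP5SA and 34.8 and 42.9 TPM in YAP5SA-S94A (0.29, SE 0.16, limma adjusted p = 0.217). The groups overlapped for Ndufaf8 and lay close to each other for Ndufaf5, which was called higher only without YAP5SA replicate 1 (0.45, limma adjusted p = 0.0373).

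Ndufaf7, a methyltransferase that acts early in assembly, had 16.0 and 17.9 TPM in YAP5SA and 13.8 and 13.9 TPM in YAP5SA-S94A, without overlap (0.27, SE 0.14, limma adjusted p = 0.179). The pair Ndufaf3 and Ndufaf4, which work together early in assembly of the quinone-binding part, had values that both changed sign when 1 YAP5SA library was left out. Ndufaf3 had 35.98 and 28.5 TPM in YAP5SA and 30.7 and 30.2 TPM in YAP5SA-S94A (0.07, SE 0.14, limma adjusted p = 0.74). Ndufaf4 had 21.6 and 34.5 TPM in YAP5SA and 25.8 and 21.0 TPM in YAP5SA-S94A (0.22, SE 0.22, limma adjusted p = 0.483). In both genes the YAP5SA libraries lay on either side of YAP5SA-S94A replicate 1. Ndufaf6, also needed for an early step, had 19.6 and 24.5 TPM in YAP5SA and 19.9 and 18.05 TPM in YAP5SA-S94A (0.20, SE 0.15, limma adjusted p = 0.356). Ndufaf1, which works on the membrane arm with Ecsit and Acad9, had 24.3 and 27.0 TPM in YAP5SA and 27.6 and 28.4 TPM in YAP5SA-S94A (-0.12, SE 0.12, limma adjusted p = 0.492). Ndufaf2, which occupies the place of Ndufa12 late in assembly, had 7.62 and 5.08 TPM in YAP5SA and 5.90 and 8.71 TPM in YAP5SA-S94A, fully interleaved values with a log2 difference of -0.18 (SE 0.25, limma adjusted p = 0.629).

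Of 10 other tested assembly factors outside the Ndufaf names, 0 rose and 2 fell (20.0% lower and 20.0% called in all, against 15.5% and 32.9% of all tested genes). Leaving out a library gave 0 to 3 lower calls, with 0 without either YAP5SA-S94A library. Ecsit had 39.8 and 40.1 TPM in YAP5SA and 54.3 and 50.6 TPM in YAP5SA-S94A (-0.38, limma adjusted p = 0.0331). Foxred1 had 20.6 and 19.6 TPM in YAP5SA and 25.97 and 27.5 TPM in YAP5SA-S94A (-0.40, limma adjusted p = 0.0476). The call of Foxred1 was kept under 8 of 15 alternatives. Acad9, Tmem126b and Timmdc1 were not called.

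The core subunits of the membrane arm, the ND genes of mitochondrial DNA, were measured in the same libraries. Of these, 6 of 7 fell, with a median log2 fold change of -0.64, and their summed level was 16872 and 21125 TPM in YAP5SA and 27906 and 32347 TPM in YAP5SA-S94A. ND2 had 2537 and 2919 TPM in YAP5SA and 4800 and 5819 TPM in YAP5SA-S94A (-0.96, SE 0.13, limma adjusted p = 0.0014). ND1 had 1929 and 2283 TPM in YAP5SA and 3073 and 3476 TPM in YAP5SA-S94A (-0.64, SE 0.12, limma adjusted p = 0.00588). ND3 had 4127 and 5948 TPM in YAP5SA and 7805 and 8197 TPM in YAP5SA-S94A (-0.69, SE 0.17, limma adjusted p = 0.0182). In these genes both YAP5SA values were the lower ones. ND4 had 3587 and 4289 TPM in YAP5SA and 5631 and 6702 TPM in YAP5SA-S94A (-0.65, limma adjusted p = 0.00868). ND5 had 2065 and 2298 TPM in YAP5SA and 2755 and 3300 TPM in YAP5SA-S94A (-0.47, limma adjusted p = 0.0204), and ND6 had 437 and 447 TPM in YAP5SA and 653 and 652 TPM in YAP5SA-S94A (-0.56, limma adjusted p = 0.00238). ND4L, with 2191 and 2940 TPM in YAP5SA and 3189 and 4201 TPM in YAP5SA-S94A, was the 1 not called (-0.53, limma adjusted p = 0.0575). The groups did not overlap for any ND gene (100% on the lower side, against 33.8% of all tested genes). With no filter on low genes 2 of the 7 were called lower, the calls of ND1, ND3, ND4 and ND5 being lost, and leaving out each library in turn gave 4 to 7, the lowest without YAP5SA-S94A replicate 2. The ND sum was 1.43 and 1.79 times that of the 38 nuclear subunits in YAP5SA and 1.99 and 2.42 times in YAP5SA-S94A. Those 38 leave out the assembly factors and both Ndufa4 genes. All transcripts of the mitochondrial chromosome made up 7.53% and 10.2% of YAP5SA libraries, against 12.6% and 14.0% of YAP5SA-S94A libraries. TPM values sum to a fixed total, so the level of each nuclear gene depends on that share. With the mitochondrial chromosome left out and TPM rescaled, 19 nuclear members were called lower and 0 higher. The median of the members was then -0.24, against -0.07 over all genes then tested. In the main fit these medians were -0.16 and 0.000148, so both moved down. The share of all genes called lower in that setting is not given here. Some ND genes overlap at their ends. ND6 (13543 to 14061) overlaps the end of ND5 (11736 to 13565) on the opposite strand. ND4L (9870 to 10166) overlaps the start of ND4 (10160 to 11537) on the same strand. Whether counting used the strand is not given in the sources used here.

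**Figure D3:**
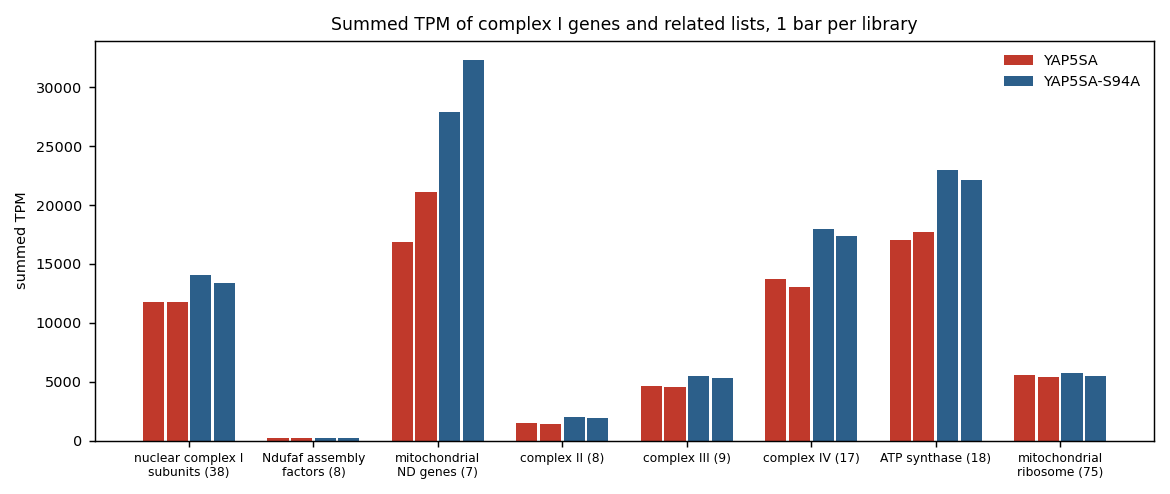
Summed TPM of nuclear complex I genes, mitochondrial ND genes and related lists, with 1 bar per library (YAP5SA left of YAP5SA-S94A) and the number of tested genes in brackets. The YAP5SA bars are lower for the 38 nuclear complex I subunits, the ND genes and complexes II to V, and the bars of the mitochondrial ribosome lie close together. The complex II bars include the assembly factor genes Sdhaf1 to Sdhaf4.

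The other respiratory complexes, encoded in the nucleus, gave lower calls and no higher ones. The complex II list holds its subunits and also the assembly factor genes Sdhaf1 to Sdhaf4. In that list 4 of 8 genes were called lower, Sdhaf1 among them, and 0 higher, with a median log2 fold change of -0.41. Sdhb, the iron-sulfur subunit, had 286 and 295 TPM in YAP5SA and 428 and 435 TPM in YAP5SA-S94A (-0.57, limma adjusted p = 0.0025). In complex III 4 of 9 fell (median -0.34), and in the ATP synthase 8 of 18 fell (median -0.26), among them Atp5if1, the inhibitor of the enzyme (-0.79, limma adjusted p = 0.00104). In complex IV 8 of 17 fell (median -0.37). Cox8b, a subunit form of heart and skeletal muscle, had 271 and 296 TPM in YAP5SA and 673 and 808 TPM in YAP5SA-S94A (-1.38, limma adjusted p = 0.000185). These shares compare with 15.5% lower calls over all tested genes. They moved with the libraries: leaving out each in turn gave 3 to 5 lower calls in complex II, 0 to 6 in complex III, 2 to 12 in complex IV and 4 to 12 in the ATP synthase. Without YAP5SA-S94A replicate 1 the counts were 3, 0, 2 and 4, and without YAP5SA-S94A replicate 2 they were 4, 0, 3 and 4. With no filter complex III had 0 lower calls. The median was -0.22 over the 38 nuclear complex I subunits and -0.16 over the 48 members, which include the assembly factors. Mitochondrial ribosome genes gave 6 higher and 8 lower calls of 75 (8.0% and 10.7%), with a median of -0.10, and 3 to 16 lower calls when each library was left out. These lists were chosen with earlier results of these data known, and their counts are a description.

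Known regulators of genes for oxidative phosphorylation gave 2 higher and 5 lower calls of 17 (11.8% and 29.4%, against 17.4% and 15.5% of all tested genes, and 41.2% called in all, against 32.9%). Ppargc1a, which encodes the coactivator PGC-1alpha, had 24.0 and 17.3 TPM in YAP5SA and 37.8 and 41.1 TPM in YAP5SA-S94A (-0.92, SE 0.17, limma adjusted p = 0.0062). The nuclear receptor gene Esrrg had 17.8 and 19.045 TPM in YAP5SA and 39.1 and 43.0 TPM in YAP5SA-S94A (-1.11, SE 0.12, limma adjusted p = 0.000729). Its relative Esrra had 80.3 and 54.8 TPM in YAP5SA and 99.8 and 97.6 TPM in YAP5SA-S94A (-0.57, limma adjusted p = 0.0434). For these 3 genes the YAP5SA values were the lower ones throughout. The size for Esrra depended on the YAP5SA libraries, at -0.84 without replicate 1 and -0.29 without replicate 2, and its call was lost with no filter, with FPKM and with no intensity trend. Ppargc1b (-0.79, with -1.13 without YAP5SA replicate 1 and -0.45 without YAP5SA replicate 2, and no call with no filter or no intensity trend) and Ppara (-1.47), which encodes a receptor that acts on fatty acid oxidation genes, also fell. Pprc1, a coactivator of the same family as Ppargc1a, rose by 0.66 (limma adjusted p = 0.0087), and so did Tfb1m (0.74). Nrf1 (0.22), Gabpa (-0.03) and Tfam (-0.11) were not called. How these levels bear on the members was not tested.

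Most cardiomyocyte markers were lower in YAP5SA as well. Of 8 such markers 6 were called lower and 0 higher. The 8 summed to 13886 and 13509 TPM in YAP5SA and 21208 and 20724 TPM in YAP5SA-S94A. Both YAP5SA values lay below both YAP5SA-S94A values for 7 markers and above them for 1, Actn2. Actn2 had 851 and 737 TPM in YAP5SA and 651 and 652 TPM in YAP5SA-S94A, and was not called (0.28, limma adjusted p = 0.067). Tnnt2, cardiac troponin T, stood at 5811 TPM or more in every library, so the defining markers of the labelled cell type were present. Fibroblast markers gave 0 higher and 2 lower calls of 8 and summed to 8527 and 6748 TPM in YAP5SA and 7243 and 6888 TPM in YAP5SA-S94A, so cells other than cardiomyocytes were present in all libraries. Endothelial markers summed to 9.93 and 9.48 TPM in YAP5SA and 28.8 and 27.4 TPM in YAP5SA-S94A, with 1 of 4 lower. That 1 gene, Kdr, a receptor for vascular growth factor, had 3.97 and 3.33 TPM in YAP5SA and 21.3 and 19.9 TPM in YAP5SA-S94A, and made most of the gap. Epicardial markers, 2 of 3 higher, summed to 28.7 and 24.5 TPM in YAP5SA and 5.60 and 5.45 TPM in YAP5SA-S94A. Most of that sum was Upk3b, at 22.4 and 18.2 TPM in YAP5SA and 0.611 and 0.544 TPM in YAP5SA-S94A, while Wt1 was not called (-0.20). Macrophage and blood markers, with 1 higher and 2 lower of 4, summed to 533 and 516 TPM in YAP5SA and 808 and 808 TPM in YAP5SA-S94A. Most of that sum was Lyz2, at 438 and 428 TPM in YAP5SA and 714 and 710 TPM in YAP5SA-S94A. The higher call was Csf1r, at 38.2 and 37.5 TPM in YAP5SA and 14.6 and 12.9 TPM in YAP5SA-S94A. Smooth muscle and pericyte markers, with 0 of 4 called and 1 with an unadjusted p under 0.05, summed to 63.6 and 60.0 TPM in YAP5SA and 52.9 and 57.8 TPM in YAP5SA-S94A. None of the listed markers was at 0 in all libraries. The part of cell make-up in the complex I differences was not tested.

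The members were compared with their neighbours, since many of them start close to a gene on the other strand. A head-to-head neighbour, with starts at most 1000 bases apart on opposite strands in rn7, was present for 17 of 48 members (35.4%), against 16.2% of all tested genes. In 12 pairs the neighbour was tested too (25.0% of members, against 11.6% of all). The partners did not always move together. Ndufs1 and Eef1b2, a translation elongation factor gene, start 412 bases apart. Eef1b2 had 696 and 747 TPM in YAP5SA and 529 and 482 TPM in YAP5SA-S94A, and rose by 0.51 (limma adjusted p = 0.0059), whereas Ndufs1 fell by 0.42. Ndufb11 and Rbm10, an RNA-binding protein gene 234 bases away, both fell, by 0.38 and 0.47. Ik, a splicing factor gene 141 bases from Ndufa2, rose by 0.64 (limma adjusted p = 0.0035), while Ndufa2 was not called at -0.14. Vmac, 70 bases from Ndufa11, fell by 0.81 (limma adjusted p = 0.0311), while Ndufa11 was not called at -0.10. Apart from such pairs, 11 members overlap a tested gene on the opposite strand, among them Ndufs3, Ndufs4 and Ndufs6l1 of the called ones, and their values are uncertain to the extent that reads could be shared.

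**Figure D4:**
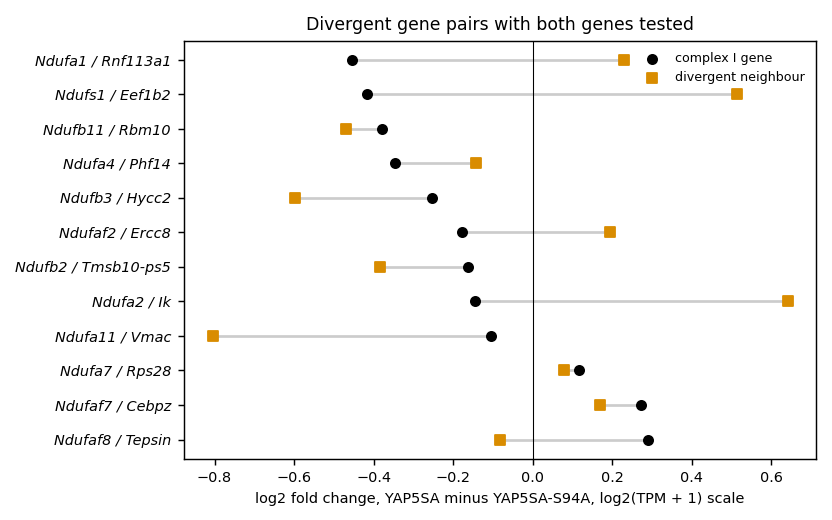
Log2 fold changes (YAP5SA minus YAP5SA-S94A, log2(TPM + 1) scale) of the 12 complex I genes with a tested head-to-head neighbour (circles) and of that neighbour (squares). Ndufs1 and Eef1b2 lie on opposite sides of 0, at -0.42 and 0.51, and Ndufb11 and Rbm10 lie on the same side.

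Promoter windows of 300 bases (250 before and 50 after the start, RefSeq, GRCr8) were available for 43 of the 48 members and for 12005 of the tested genes. The TEAD letters GGAATG, on either strand, were in 14.0% of the members' windows, 11.6% of those of tested genes and 14.2% of all 33469 windows. By the same count the ETS letters CCGGAAG were in 20.9%, 16.8% and 8.75%, the ERR half-site AAGGTCA in 9.3%, 3.0% and 4.61%, and the NRF1 core in 20.9%, 9.50% and 4.25%. The YY1 letters AAGATGG were in 23.3% of the members' windows, 7.78% of those of tested genes and 7.01% of all windows. By call, YY1 letters were in 4 of 13 windows of members called lower and 5 of 29 of members not called, and TEAD letters in 2 of 13 and 4 of 29. Matches of the ETS letters can overlap those of ERR or YY1 by a shared AAG, and NRF1 cores can overlap each other. A match is a description of letters and not of binding.

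The YY1 letters are shown for the 10 members that hold them because their place was shared: all lay on the gene's strand at or just after the start. Read on the gene's strand within the first 50 bases, a window chosen after the values were seen, they were in 9 of 43 members (20.9%) and 2.88% of tested genes. Capitals mark the match, with 10 bases on each side, 5′ to 3′. The letters include ATG, and whether they hold the start codon was not tested. The first 4 belong to members called lower, the fifth to the member called higher and the other 5 to members not called.
Ndufa6 (chr7:115750286-115750312, minus strand): cttccttagcAAGATGGcggccgcggc
Ndufa9 (chr4:161374144-161374170, minus strand): attgtgggagAAGATGGcggccgccgt
Ndufs4 (chr2:47794894-47794920, minus strand): tgcccacaggAAGATGGcggcggtctc
Ndufs6l1 (chr1:31797413-31797439, plus strand): ggtcgtcggcAAGATGGcggcggcgct
Ndufa3 (chr1:74515526-74515552, minus strand): gtccaagaccAAGATGGctgctagtaa
Ndufs7 (chr7:10110478-10110504, minus strand): ggccgaggccAAGATGGcggcgctggc
Ndufa2 (chr18:28631842-28631868, minus strand): tttgctagcaAAGATGGcggccgcaag
Ndufb8 (chr1:253362899-253362925, minus strand): ggagaaggtgAAGATGGcggcgtcccg
Ndufaf8 (chr10:105879900-105879926, plus strand): ggcagggcccAAGATGGcggcgcccac
Ndufa4l2 (chr7:65242158-65242184, plus strand): acactggaacAAGATGGcaggaaccag
In 8 of these 10 windows the letters are followed by CGG, and the exceptions are Ndufa3 and Ndufa4l2. The letters occur in both called and uncalled members, and a difference in their shares was not tested.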

How the data were processed

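Poly(A) RNA was sequenced in 4 libraries with a directional kit, per the labels' protocols. Per the submitters' processing notes, the build was rn7 and the tools included StringTie 2.2.1, HISAT2 2.2.1 and fastp. Settings, and whether counting used the strand, are not given in the sources used here. The deposited tables hold 40903 entries each. TPM and FPKM values were computed by the authors, and the deposited coverage signal is the mean read depth per base. The ratio of coverage to FPKM gave 5.10 and 4.02 gigabases of aligned sequence for YAP5SA and 5.02 and 4.97 for YAP5SA-S94A. Read counts were not used here, so no counting intervals are given.

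TPM was summed over entries that share a gene name (517 names; no complex I gene among them). For genes whose TPM averaged 1 or more, limma (3.58.1, R 4.3.3) was fitted to log2(TPM + 1) with a variance trend on intensity, 2 residual and 5.09 prior degrees of freedom, and Benjamini-Hochberg adjustment over all 13420. An exact permutation test of 2 against 2 libraries cannot go below p = 0.333. The script was checked on simulated data. Numbered pseudogene entries of the family (47, at most 0.996 TPM) were left out. Roles were assigned from textbook knowledge of the enzyme. The members, lists, markers and tests were chosen with earlier results of these data known. With 1 exception given below, full statistics go to the 3 highest and 3 lowest signed log2 fold changes in each role, the most and least abundant member, both Ndufa4 genes and all assembly factors, and outside the members values are given for the ND genes, named regulators and a few genes of each list. The head-to-head partners, Actn2, Kdr, Upk3b, Wt1, Lyz2, Csf1r, Sdhaf1, Ppara, Pprc1 and Tfb1m were named after their values were seen. Of the names, 50 matched a symbol and 1 a synonym in the RefSeq table of GRCr8, which was used for names and sequences and not for rn7 coordinates. The values of 1 member, which is in all counts, medians and sums, are not reported here, and it is not drawn. Other steps used matplotlib 3.10.9, numpy 2.4.6 and pandas 2.3.3 in Python 3.11.15. Alternatives covered leaving out each library, a replicate block, pseudocounts of 0.1 and 5, entries not summed, and other filters, units, scalings and variance models.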

Additional observations from a re-analysis of the deposited data

How the results depend on the processing

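Of 768 values of single members under 16 alternatives, 686 kept their direction and their side of the threshold, 47 lost a call, 22 gained one and 13 changed sign, none of these last a called member. The median of the members stayed negative throughout, while the count of members called lower moved with the setting. The number called higher was 0 rather than 1 with no filter, with FPKM, with no intensity trend, with median-of-ratios scaling and without the mitochondrial chromosome. With no intensity trend 4 members were called in all, and all 4 were lower. The median of the members was -0.19 with FPKM, -0.21 with quantile normalization and -0.24 with the mitochondrial chromosome left out. Over all tested genes the median moved down too, to -0.02, -0.04 and -0.07 in these settings, from 0.000148 in the main fit. Why the medians moved was not tested beyond that rescaling. Leaving out each library in turn gave 2 to 20 members called, 2 to 19 lower and 0 to 3 higher, medians of -0.21 to -0.13, and 1312 to 2739 genes called lower over all genes. Without a YAP5SA-S94A library the lone one left is assumed to vary like the YAP5SA pair, which was the wider.

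Ndufb10 changed sign with quantile normalization (-0.048) and without the mitochondrial chromosome (-0.0342). Leaving out a library gave ranges that cross 0 for Ndufb10 (-0.0531 to 0.128), Ndufa5 (-0.273 to 0.0287), Ndufa11 (-0.227 to 0.0173), Ndufa12 (-0.111 to 0.0334), Ndufaf2 (-0.43 to 0.0749), Ndufaf3 (-0.0917 to 0.234), Ndufaf4 (-0.102 to 0.55), Ndufb1 (-0.45 to 0.37), Ndufb7 (-0.152 to 0.027) and Ndufb8 (-0.313 to 0.016).

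The titles number the replicates, but nothing says that a number is shared between forms. The correlation of deviations within the number was 0.101. With the replicate number as a block, 17 members were called lower and 2 higher, and 5319 genes in all, against 4420 without the block. The aligned sequence of 4.02 to 5.10 gigabases limits the scarce members Ndufaf2 and Ndufa4l2 most.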
